A study of Rattus norvegicus with 9 samples.

Results

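A set of 7 miRNA entries known from blood vessels was followed in small RNA libraries of rat striatum, the input nucleus of the basal ganglia. They are miR-126a-3p, miR-126a-5p and miR-126b of the endothelial miR-126 locus, and both arms of miR-143 and miR-145 from the smooth-muscle cluster of miR-143 and miR-145. All 7 listed names were found in every file, out of 764 miRNA entries and 1759 small RNA entries in all, and all 7 passed the filter on low counts. The rats, of both sexes and 8 weeks old at allocation, were treated daily on 6 days of each week for 8 weeks. Controls were given corn oil (1 ml/kg). The MMT group was given methylcyclopentadienyl manganese tricarbonyl, an organic manganese fuel additive, intragastrically in corn oil at 4 mg/kg, which is about 1 mg/kg of manganese. The MnCl2 group, the positive control, received manganese chloride tetrahydrate at 200 mg/kg in physiological saline at 10 ml/kg. Compound and vehicle therefore cannot be told apart in its comparisons with control and with MMT, and MMT and MnCl2 also differed in dose. The series describes 18 rats, 3 of each sex in each group, and each group had 3 libraries. The labels give neither the sex behind a library nor whether it came from 1 rat or a pool, so the spread between libraries may be technical. Strain is likewise not given in the sources used here.

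The vessel wall of the brain consists of an endothelial lining, smooth-muscle cells around arteries and arterioles, and pericytes around capillaries. miR-126 lies within Egfl7, a gene of endothelial cells, and is known for sustaining VEGF signalling and vessel integrity by repressing inhibitors such as Spred1. miR-143 and miR-145 are made from 1 long transcript, Carmn, and are known for holding smooth-muscle cells in their contractile state, with Klf4 and Klf5 among the targets described for miR-145. In a bulk tissue sample, fewer vessel cells and less miRNA per cell cannot be told apart.

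The mature sequences are shown because the strands they lie on bear on the counts. They are given 5′ to 3′ with the seed, bases 2 to 8, in capitals, and the deposited sequences of all 7 were identical to those of RefSeq.
rno-miR-126a-3p: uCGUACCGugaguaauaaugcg
rno-miR-126a-5p: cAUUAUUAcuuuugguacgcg
rno-miR-126b: uACCAAAAguaauaaugugcug
rno-miR-143-3p: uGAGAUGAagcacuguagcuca
rno-miR-143-5p: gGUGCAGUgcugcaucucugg
rno-miR-145-5p: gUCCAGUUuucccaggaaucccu
rno-miR-145-3p: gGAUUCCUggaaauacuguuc
The 7 seeds differ from one another, and 0 other miRNA entries in the files share any of them. In the GRCr8 build of RefSeq, miR-126a-3p lies at chr3:29813219-29813240 and miR-126a-5p at chr3:29813182-29813202, both on the plus strand and within the span of Egfl7. miR-126b lies at chr3:29813177-29813198 on the minus strand, across the miR-126a-5p site. miR-143-3p (chr18:57371373-57371394) and miR-143-5p (chr18:57371408-57371428) lie on the minus strand within Carmn, as do miR-145-5p (chr18:57370033-57370055) and miR-145-3p (chr18:57369997-57370017).

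Because the miR-143 and miR-145 arms are compared below, their RefSeq hairpins are shown with both mature arms in capitals, the 5p arm first.
Mir143: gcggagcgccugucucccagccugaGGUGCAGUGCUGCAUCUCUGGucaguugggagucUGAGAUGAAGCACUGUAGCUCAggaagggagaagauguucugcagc
Mir145: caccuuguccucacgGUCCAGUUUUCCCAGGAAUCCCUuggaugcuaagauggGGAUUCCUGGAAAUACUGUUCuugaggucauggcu

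Counts per library ran from 583045 to 2012769, and the 7 entries together held 1.84% to 2.07% of them in 8 libraries and 3.27% in the first MnCl2 library, called MnCl2 1 here. That library stood apart for miR-143 and miR-145, though not for them alone. Most of the fold changes, medians, correlations and spreads that involve it are given with and without it. The brain identity of the tissue was checked on the neuronal miR-128-3p, which was at 17445 CPM in MnCl2 1 and between 16373 and 22415 in the other 8 libraries. Levels are TMM-normalised CPM, where CPM is the count divided by the scaled library size. The mature arms are of like length, so levels of different members were set side by side without a length correction, although adapter ligation can favour some sequences.

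The endothelial guide strand miR-126a-3p was the 27th most abundant of the 615 miRNA entries that passed the filter, and ranked between 24 and 28 among all miRNA entries in every library. Its level was 8353, 6088 and 5922 CPM in the 3 control libraries, 7598, 6736 and 7678 in MMT, and 8637, 6362 and 7147 in MnCl2. The highest values were those of MnCl2 1 and control 1, and the 3 groups overlapped. Its partner miR-126a-5p, which is itself loaded and active in endothelium, was at 2315, 2066 and 1664 CPM in control, 2216, 1746 and 2301 in MMT, and 2884, 1750 and 2157 in MnCl2 libraries. MnCl2 1 was again the highest, and the other 8 libraries lay within 1664 to 2315 CPM.

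The entry miR-126b followed miR-126a-5p almost count for count. It stood at 2382, 2029 and 1570 CPM in control, 2187, 1693 and 2236 in MMT, and 2729, 1737 and 2198 in MnCl2 libraries. The stretch in which miR-126b is the complement of miR-126a-5p is marked here in capitals and spans 17 bases of each.
rno-miR-126b: UACCAAAAGUAAUAAUGugcug
rno-miR-126a-5p: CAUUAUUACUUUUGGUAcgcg
Over the 9 libraries miR-126b held 20290 raw counts and miR-126a-5p 20523, and the ratio of miR-126b to miR-126a-5p stayed between 0.943 and 1.03 in each library. Such closeness was common among miRNA entries on opposite strands. Of 29 pairs that share at least 16 complementary bases and of which a member reached 1000 counts, 18 had a smaller total over 0.9 times the larger. The use of strand in counting is not given in the sources used here, so whether miR-126b reads are those of miR-126a-5p cannot be told apart, and its values below are no separate evidence. Among the 7 members, a run of 16 or more complementary bases with another miRNA entry was found only for this pair.

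miR-143-3p, the main smooth-muscle product, was the most abundant of the 7 and the 21st among the miRNAs that passed the filter. It was at 9215, 7364 and 6624 CPM in control, 8675, 7235 and 8245 in MMT, and 17934, 7239 and 7929 in MnCl2 libraries. Only MnCl2 1 stood out, whereas the other two MnCl2 libraries lay inside the control range. The scarce opposite arm miR-143-5p was at 99.1, 110.5 and 82.1 CPM in control, 100.6, 114.3 and 93.8 in MMT, and 318, 94.9 and 114.4 in MnCl2.

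miR-145-5p, the active arm of its hairpin, was at 702.8, 464.7 and 404.7 CPM in control, 497.8, 416.9 and 599.7 in MMT, and 1329, 454.8 and 491.4 in MnCl2 libraries. Here control 1 and MMT 3, the 2 deepest libraries, were the highest after MnCl2 1. The minor arm miR-145-3p was at 69.6, 84.1 and 76.1 CPM in control, 80.1, 90.4 and 83.1 in MMT, and 207, 83.1 and 77.7 in MnCl2. It was the scarcest of the 7, resting on 50 to 150 raw counts a library.

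**Figure D1:**
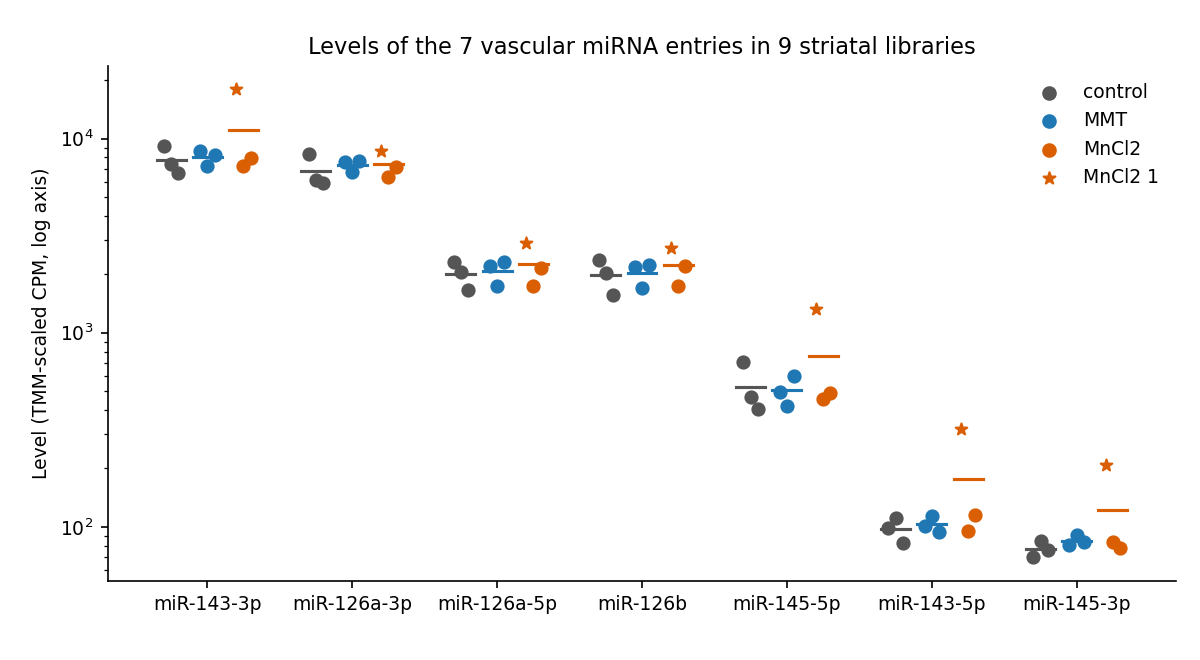
Levels of the 7 entries in TMM-scaled CPM (log axis), 1 point per library coloured by group, with short lines for group means (n = 3). The star is MnCl2 1, which lies far above the other libraries for the 4 miR-143 and miR-145 arms and is the highest by a small margin for the 3 miR-126 entries.

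Ordered by mean level over the 9 libraries, miR-143-3p (8940 CPM) was followed by miR-126a-3p (7169), miR-126a-5p (2122), miR-126b (2084), miR-145-5p (595.7), miR-143-5p (125.3) and miR-145-3p (94.6). miR-143-3p exceeded miR-126a-3p in 9 of 9 libraries, but the ranges of the 2 overlapped, as did those of miR-126a-5p with miR-126b and of miR-143-5p with miR-145-3p. The other neighbours in this order did not overlap in range. The 2 miRNAs of this cluster were unequal in level, with miR-143-3p at 13.1 to 17.4 times the raw count of miR-145-5p, and this ratio had a mean of 15.5 ± 1.63 (SD, n = 9).

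MMT and control shared the corn oil vehicle. None of the 7 differed beyond the spread between libraries, and scaling on miRNA entries alone turned 5 of the small fold changes negative (miR-126a-3p -0.03, miR-126a-5p -0.09, miR-126b -0.11, miR-143-3p -0.08, miR-143-5p -0.06). For miR-126a-3p, control libraries averaged 6788 ± 1358 CPM and MMT libraries 7338 ± 522 (SD, n = 3), with a log2 fold change of 0.11 and a 95% interval of -0.29 to 0.51 (edgeR adjusted p = 1). miR-143-3p was at 7734 ± 1335 and 8052 ± 739 CPM, with a log2 fold change of 0.06 (interval -0.62 to 0.73). miR-145-5p was at 524.1 ± 158 and 504.8 ± 91.6 CPM, with a log2 fold change of -0.06 (interval -0.90 to 0.79). The remaining 4 had log2 fold changes between 0.03 and 0.14. With edgeR 0 of the 7 entries were called at an adjusted p of 0.05, as were 0% of the 1113 entries tested, and DESeq2 called 0 entries too. At an unadjusted p under 0.05 edgeR had 2 entries higher (0.18%) and 22 lower (1.98%) in MMT, with 0 of the 7 members among them. The groups overlapped for 7 of 7 members, against a background of 1.8% of entries wholly higher and 2.79% wholly lower in MMT.

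In MnCl2 libraries the means of all 7 exceeded those of control and none passed the test; scaling on miRNA entries alone put the 3 miR-126 entries below control (miR-126a-3p -0.16, miR-126a-5p -0.13, miR-126b -0.14). The miRNA entries as a class had a median log2 fold change of 0.23 here, beside 0.06 for all entries, and 0.15 without MnCl2 1. Control libraries averaged 7734 ± 1335 CPM of miR-143-3p and MnCl2 libraries 11034 ± 5986 (SD, n = 3; log2 fold change 0.51, SE 0.31, interval -0.16 to 1.19, edgeR adjusted p = 0.843). For miR-143-5p the means were 97.3 ± 14.3 in control and 175.8 ± 124 in MnCl2 (0.83, SE 0.38), with the lowest unadjusted p of the 7, 0.0507. In MnCl2, miR-145-5p averaged 758.2 ± 494 CPM (0.52, SE 0.38), and miR-145-3p averaged 122.7 ± 73.3 beside 76.6 ± 7.30 in control (0.67, SE 0.33); the edgeR adjusted p was 0.843 for both. The SD of each of these 4 in MnCl2 was more than 50% of its mean, from 54.2% for miR-143-3p to 70.3% for miR-143-5p. By comparison, miR-126a-3p was at 7382 ± 1156 CPM, with a log2 fold change of 0.12 (SE 0.18, interval -0.28 to 0.52, edgeR adjusted p = 0.888), and miR-126a-5p at 2263 ± 575 CPM (0.17, SE 0.20, edgeR adjusted p = 0.851). Called entries made up 0% of the 1113 tested with edgeR, and DESeq2 called 0 entries. At an unadjusted p under 0.05 edgeR had 16 entries higher (1.44%) and 35 lower (3.14%) in MnCl2, with 0 of the 7 members among them. That 0 depended on the setting: miR-143-5p and miR-145-3p had an unadjusted p under 0.05 without the low-count filter and without MnCl2 3, and miR-143-3p joined them without MnCl2 2, settings in which MnCl2 1 stayed in the fit. All 7 members overlapped between the groups, where 4.76% of entries were wholly higher in MnCl2 and 4.94% wholly lower.

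Leaving out MnCl2 1 brought the 4 smooth-muscle values close to 0. The log2 fold change of MnCl2 against control was then -0.03 (SE 0.20) for miR-143-3p, 0.09 (SE 0.20) for miR-143-5p, -0.16 (SE 0.25) for miR-145-5p and 0.07 (SE 0.20) for miR-145-3p. All 4 had an edgeR adjusted p equal to 0.992. For miR-126a-3p it was -0.01 (SE 0.20) and for miR-126a-5p -0.05 (SE 0.20). In the same fit the MMT values were nearly the same as before, at 0.06 for miR-143-3p and 0.11 for miR-126a-3p.

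**Figure D2:**
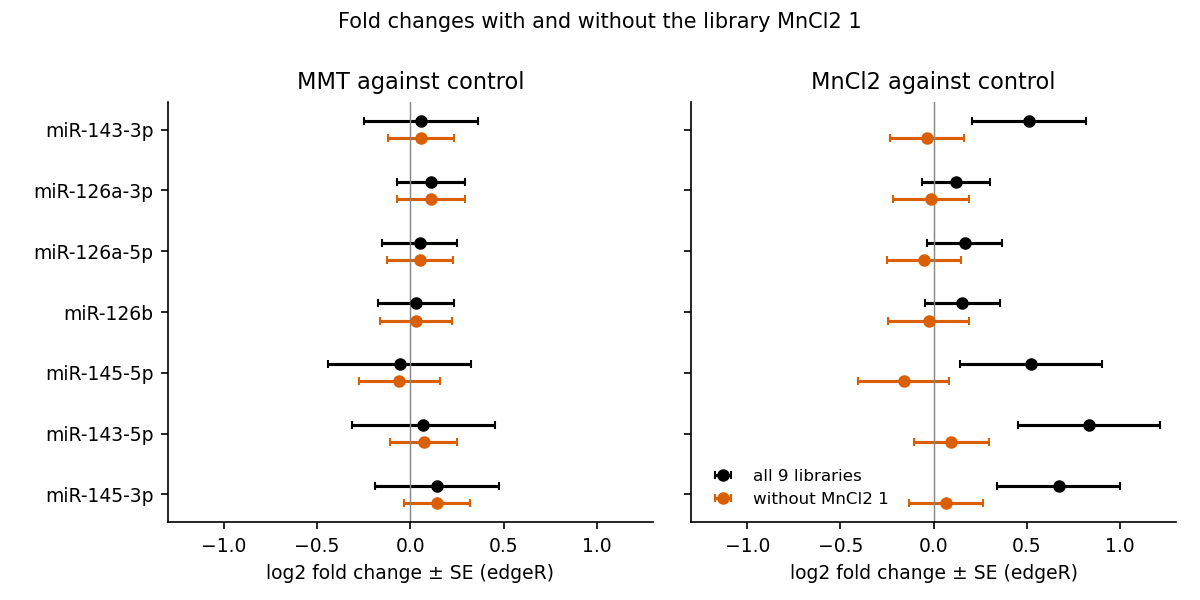
Log2 fold changes from edgeR with their SE for MMT against control (left) and MnCl2 against control (right), with all 9 libraries in black and without MnCl2 1 in orange. On the right, the 4 miR-143 and miR-145 arms lie at 0.51 to 0.83 with all libraries and at -0.16 to 0.09 without MnCl2 1.

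Set side by side, MMT and MnCl2 gave miR-143-3p log2 fold changes of 0.06 and 0.51 against their shared control, and miR-145-5p -0.06 and 0.52. Tested directly, MMT against MnCl2 gave -0.45 (SE 0.31) for miR-143-3p, -0.76 (SE 0.38) for miR-143-5p, -0.58 (SE 0.38) for miR-145-5p and -0.53 (SE 0.33) for miR-145-3p (edgeR adjusted p = 0.981 for all 4). Without MnCl2 1 these were 0.09, -0.02, 0.10 and 0.08. The difference for miR-126a-3p was -0.01 (interval -0.41 to 0.39). It turned positive in 7 of 11 other settings of scaling, filter or model. Both edgeR (0% of 1113) and DESeq2 called 0 entries in this comparison. At an unadjusted p under 0.05 edgeR had 15 entries higher (1.35%) and 7 lower (0.629%) in MMT than in MnCl2, with 0 of the members among them (2 without the low-count filter, 3 without MnCl2 2 and 2 without MnCl2 3), and the groups overlapped for 7 of 7 members (4.31% of entries were wholly higher and 4.76% wholly lower in MMT).

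The library MnCl2 1 was then described against the other 8, as a library rather than as a treatment. Among 264 miRNA entries of 50 CPM or more, the 4 miR-143 and miR-145 arms held the 4 highest ratios of its level to the highest of the other 8. These ratios were 2.78 for miR-143-5p, 2.29 for miR-145-3p, 1.95 for miR-143-3p and 1.89 for miR-145-5p. For comparison, 9 entries, or 3.41% of the 264, exceeded 1.5 times the highest of the other 8, and no other library had more than 3 such entries. The other 5 were miR-223-3p, miR-152-3p, miR-203a-3p, miR-27a-3p and miR-203b-5p, named after their values were seen. This contrast depended on the cut. Of all 615 miRNA entries, 18 (2.93%) passed 1.5 times in MnCl2 1, 13 (2.11%) in control 3, 9 in MnCl2 2 and 8 in MMT 2. Of all 1113 entries, 20 did so in control 3 and 18 in MnCl2 1. The 3 miR-126 entries were also highest in MnCl2 1, but by 1.03 to 1.25 times. There 81 of the 264 miRNAs (30.7%) had their highest level, and 77 (29.2%) had it in control 1. With scaling on miRNA entries alone the 4 ratios ran from 1.41 to 2.17, within the top 6 of 264, and those of miR-126 fell below 1, from 0.773 to 0.931. The number of entries over 1.5 times depended on this scaling as well. It was then 2 of the 264 (0.758%), both of them miR-143 or miR-145 arms. Relative to the total count it was 8 (3.03%), with all 4 arms among them.

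**Figure D3:**
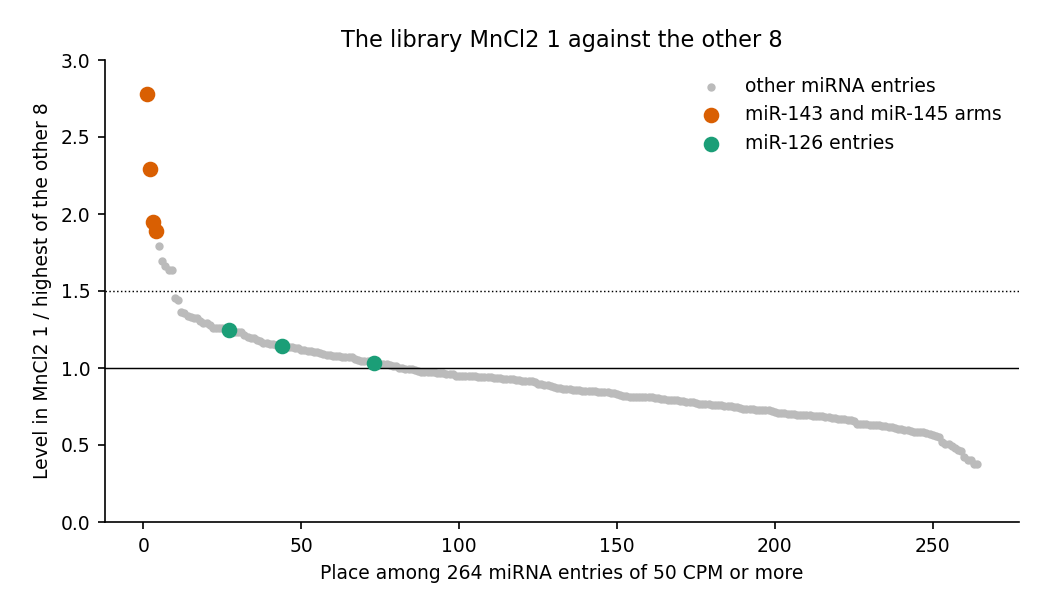
Ratio of the level in MnCl2 1 to the highest level in the other 8 libraries, in descending order. Shown are the 264 miRNA entries with a mean of 50 CPM or more. The 4 arms of miR-143 and miR-145 (orange) take the first 4 places at 1.89 to 2.78, and the 3 miR-126 entries (green) lie at 1.03 to 1.25.

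Ratios within a library, which need no scaling, gave the same picture. The raw count of miR-143-3p was 1.07 to 1.21 times that of miR-126a-3p in the other 8 libraries, with a mean of 1.12 ± 0.0438 (SD, n = 8), and 2.08 times in MnCl2 1. The ratio of miR-143-3p to miR-145-5p in MnCl2 1 was 13.5, inside the range of the other 8 (13.1 to 17.4), so both miRNAs of the cluster were high in like measure there.

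**Figure D4:**
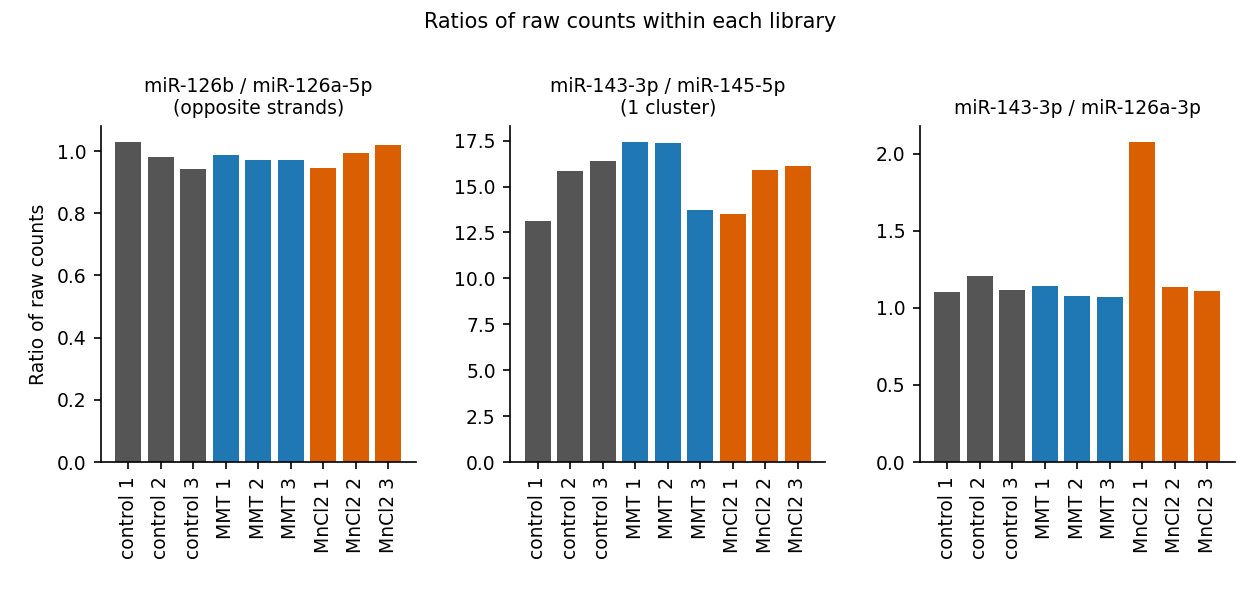
Ratios of raw counts (bars starting at 0), 1 bar for each of the 9 libraries, coloured by group. The ratio of miR-126b to miR-126a-5p stays between 0.943 and 1.03, that of miR-143-3p to miR-145-5p between 13.1 and 17.4, and that of miR-143-3p to miR-126a-3p between 1.07 and 1.21 except for 2.08 in MnCl2 1.

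Some markers of other cells were also high in MnCl2 1. The summed fibroblast or meningeal entries (2 of 3 listed passed the filter) were at 349.8 CPM in MnCl2 1, at 123 and 166 in the other two MnCl2 libraries, at 117 to 173 in control and at 118 to 218 in MMT. Of these, miR-199a-5p was at 121.7 CPM against 20 to 41.1 in the other 8 libraries, and miR-199a-3p at 228.1 against 83.7 to 181. The third, miR-214-3p, was too scarce to pass the filter and was not raised there. Its raw count was 5 in MnCl2 1 and 5 to 17 in the other 8 libraries. Red cell entries (3 of 4 listed) summed to 185 CPM in MnCl2 1, against 66.5 and 96.6 in MnCl2 2 and 3, 66.8 to 108 in control and 79.3 to 84.1 in MMT, and the fourth, the erythroid miR-486, was too scarce to pass the filter, with a raw count of 0 in MnCl2 1 and 1 to 6 in the other 8 libraries. Myeloid or platelet entries (4 of 4) summed to 1627 CPM in MnCl2 1 and to between 811 and 1259 elsewhere. Of this sum miR-142-3p held 974.6 CPM. It was highest in MnCl2 1, as were miR-142-5p (326 CPM against at most 261 elsewhere) and miR-223-3p (187 against at most 104). The fourth, miR-150-5p, was at 139.6 CPM in MnCl2 1, below its median of 166.6 in the other 8 libraries. Choroid plexus entries (3 of 3) stood at 1189 CPM in MnCl2 1 but reached 1938 in MMT 3, and epithelial entries (4 of 5) stood at 172.8 CPM there and at 167 in MnCl2 2. Striated muscle entries (3 of 3) were not high, at 98.2 CPM in MnCl2 1 against 65.4 to 210 elsewhere, nor were neuronal ones (5 of 5), at 38303 against 32274 to 43314, and oligodendrocyte entries (3 of 3) stood at 5788 against 3406 to 5743. The part of these other cells in the miR-143 and miR-145 levels was not tested.

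Further miRNAs described in vessel wall, endothelium or angiogenesis were taken as a list of 30, of which 27 passed the filter. For MMT against control 0 of the 27 were called and 21 were positive (77.8%, beside 57.4% of the 615 miRNA entries), with a median log2 fold change of 0.14 beside 0.04 for miRNA entries and 0.01 for all entries. For MnCl2 against control 0 were called and 21 were positive (77.8%, beside 77.4% of miRNA entries), and the median of 0.18 lay below the 0.23 of miRNA entries. Without MnCl2 1, 14 of the 27 were positive in that comparison (51.9%, beside 69.1% of miRNA entries), with a median of 0.0029 beside 0.15 for miRNA entries. For MMT against MnCl2 0 were called and 14 were positive (51.9%, beside 27.2% of miRNA entries), with a median of 0.02 beside -0.19 for miRNA entries. Leaving out MnCl2 1 made this 18 positive (66.7%, beside 35.8%), with a median of 0.10 beside -0.14. The 2 most abundant of the list were miR-26a-5p, with log2 fold changes of 0.04 for MMT and -0.01 for MnCl2, and miR-27b-3p, with 0.19 and 0.15. In MnCl2 1, 12 of the 27 (44.4%) had their highest level, as had 23.9% of the 615 miRNA entries and 30.7% of the 264 with a mean of 50 CPM or more. There 2 of the 27 (7.41%), miR-199a-5p and miR-27a-3p, exceeded 1.5 times the highest of the other 8 libraries, as did 18 of the 615 (2.93%). Their summed level there, 31649 CPM, lay within the 22628 to 36233 of the other 8.

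Arm balance was compared next, since a hairpin's 2 arms come from the same precursor. The share of miR-126a-3p in both miR-126a arms averaged 77.01% ± 2.04 (SD, n = 3) in controls, 77.9% ± 1.32 after MMT and 76.7% ± 1.73 after MnCl2. In the shallowest library, control 3, the share of 78.1% had an exact binomial 95% interval of 76.9% to 79.2%, which covers counting error only. Of both miR-143 arms, miR-143-3p took 98.7% ± 0.210 in control, 98.7% ± 0.242 in MMT and 98.5% ± 0.231 in MnCl2. For both hairpins the group means lay closer together than the largest SD within a group.

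The balance of miR-145 was looser. The share of miR-145-5p averaged 86.6% ± 3.80 (SD, n = 3) in controls, 85.4% ± 2.90 after MMT and 85.8% ± 1.09 after MnCl2. Its share was 91.0% in control 1 (exact 95% interval 89.4% to 92.4%) and 82.2% in MMT 2 (78.1% to 85.8%), the highest and lowest of the 9. These intervals cover counting error only, and reads may not be independent molecules. MnCl2 1, at 86.5%, lay between them. Both arms were thus high together in that library, while among the other 8 the 5p arm was richest in the deepest libraries, control 1 and MMT 3 (87.8%), and poorest in the 2 shallowest, MMT 2 and control 3 (84.2%).

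Across the 9 libraries the members were correlated with one another and with the total count, in a family of 9 relations with exact two-sided permutation tests. These permuted the libraries freely across the 3 groups, so they take no account of treatment. miR-145-5p followed miR-143-3p (Pearson r = 0.972, exact permutation p = 0.000174, adjusted 0.000777; Spearman rho = 0.983, exact permutation p = 4.96e-05, adjusted 0.000446; n = 9). Leaving out control 3 and MnCl2 1, whose miR-143-3p lay farthest from the median, gave r = 0.86 (exact permutation p = 0.00853, n = 7). miR-126a-3p followed miR-143-3p as well (r = 0.781, exact permutation p = 3.31e-05, adjusted 0.000298; rho = 0.917, exact permutation p = 0.00131, adjusted 0.00295), and without the same 2 libraries r was 0.933 (exact permutation p = 0.00357). Between miR-126a-3p and miR-145-5p r was 0.817 (exact permutation p = 0.000259, adjusted 0.000777; rho = 0.933, exact permutation p = 0.00075, adjusted 0.00225), and 0.779 without control 1 and MnCl2 1 (exact permutation p = 0.031). The 2 arms of miR-126a gave r = 0.864 (exact permutation p = 0.00286, adjusted 0.00644; rho = 0.933, exact permutation p = 0.00075, adjusted 0.00225), and 0.727 without control 3 and MnCl2 1 (exact permutation p = 0.0692), so that this relation rests in part on those libraries. Scaling decided several of these calls: relative to the total count alone only miR-126a-3p with miR-143-3p passed (r = 0.790, exact permutation p = 0.000628, adjusted 0.00565), and with TMM on miRNA entries alone that relation did not (r = 0.496, exact permutation p = 0.16, adjusted 0.206).

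For the minor arms the relation to the partner arm turned on MnCl2 1. miR-143-5p and miR-143-3p gave r = 0.924 over 9 libraries (exact permutation p = 0.0351, adjusted 0.0632; rho = 0.383, exact permutation p = 0.312, adjusted 0.352) and -0.39 without control 3 and MnCl2 1 (exact permutation p = 0.379). miR-145-3p and miR-145-5p gave r = 0.801 (exact permutation p = 0.102, adjusted 0.153; rho = 0.1, exact permutation p = 0.81, adjusted 0.81) and -0.04 without control 1 and MnCl2 1 (exact permutation p = 0.942). Both relations rest on MnCl2 1.

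With the log2 total count, the 9 libraries gave no relation that passed the test. For miR-126a-3p r was 0.543 (exact permutation p = 0.133, adjusted 0.17; rho = 0.5, exact permutation p = 0.178, adjusted 0.228), for miR-143-3p 0.036 (exact permutation p = 0.921, adjusted 0.921; rho = 0.617, exact permutation p = 0.0857, adjusted 0.129) and for miR-145-5p 0.179 (exact permutation p = 0.642, adjusted 0.722; rho = 0.633, exact permutation p = 0.076, adjusted 0.129). Leaving out control 1 and control 3, whose totals lay farthest from the median, gave 0.0868, -0.31 and -0.21. Without MnCl2 1 instead, r was 0.865, 0.928 and 0.968 (exact permutation p = 0.00526, 0.00112 and 4.96e-05; adjusted 0.00789, 0.00335 and 0.000446; n = 8). The scaling mattered here, because TMM factors ran from 0.893 in the deepest library, control 1, to 1.13 in the shallowest, control 3. With levels relative to the total count alone these 8 libraries gave 0.377 for miR-126a-3p and 0.433 for miR-143-3p, and miR-145-5p alone of the 3 passed (r = 0.874, exact permutation p = 0.00193, adjusted 0.0174). Relations between members in those 8 libraries share this dependence, as miR-145-5p with miR-143-3p gave 0.884 with TMM and 0.375 with the total count. For miR-126a-3p the values were 0.951 and 0.772 with miR-143-3p, and 0.866 and 0.434 with miR-145-5p.

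**Figure D5:**
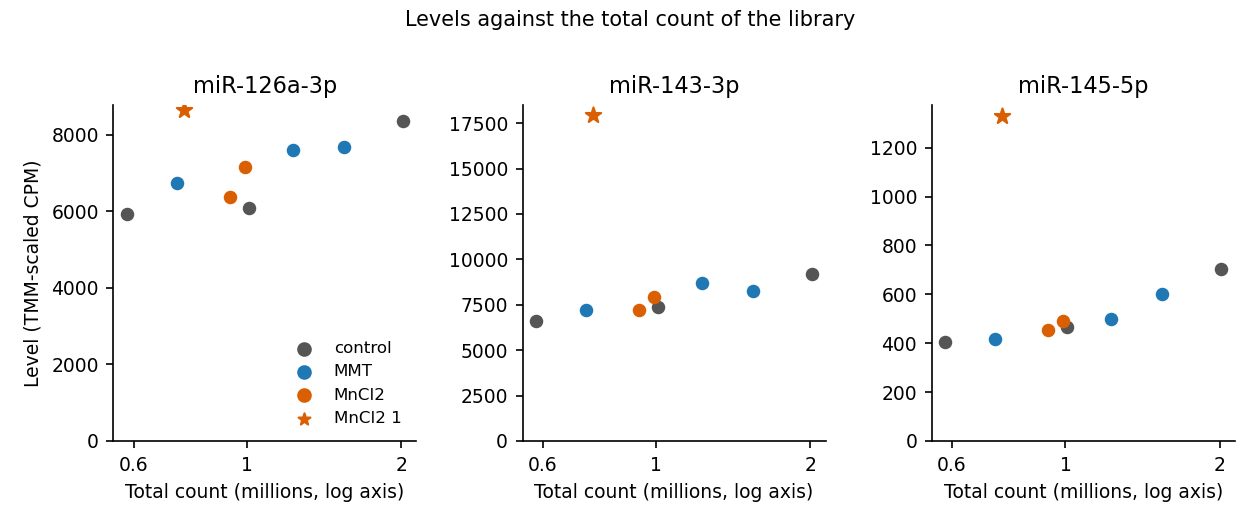
Level of 3 members (TMM-scaled CPM) against the total count of the library (log axis), 1 point per library coloured by group. In 8 libraries r with the total is 0.865 to 0.968 on this scale (0.377 to 0.874 relative to the total count alone), and MnCl2 1 (star) lies above them at a total of 753383.

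The 3 miRNAs whose log2 levels over the 9 libraries were most like those of miR-126a-3p, of 608 compared, were miR-26b-5p (r = 0.944), miR-24-3p (0.939) and miR-322-5p (0.917), against a median r of -0.07 over all 608. These values were chosen as the highest, share library depth and carry no test. For miR-143-3p the nearest were miR-27a-3p (0.893), miR-99a-5p (0.866) and miR-152-3p (0.853). For miR-145-5p they were miR-19b-3p (0.886), miR-99a-5p (0.882) and miR-543-3p (0.879). Without MnCl2 1 the likeness of miR-27a-3p and miR-152-3p to miR-143-3p was 0.330 and 0.187, while that of miR-99a-5p was 0.828 and that of miR-26b-5p to miR-126a-3p 0.972. miR-152-3p was at 698.1 CPM in MnCl2 1 and at most 412.1 elsewhere, and miR-27a-3p at 1577 and at most 962.8.

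The spread between libraries was compared last. The biological coefficient of variation, edgeR's estimate of the spread between libraries of a group beyond counting error, was 0.161 for miR-126a-3p, 0.186 for miR-126a-5p, 0.262 for miR-143-3p and 0.333 for miR-145-5p, beside a median of 0.329 for all miRNA entries and 0.185 for the 74 over 1000 CPM. Without MnCl2 1 it was 0.160 for miR-126a-3p, 0.169 for miR-126a-5p, 0.155 for miR-143-3p and 0.209 for miR-145-5p, so the wider spread of miR-143-3p came with that library. The median for all miRNA entries was then 0.363. It was taken over the entries that passed the filter on those 8 libraries, which need not be the same set, so the medians are not directly comparable. Over the 8 other libraries the SD of the level was 11.0% of the mean for miR-143-3p and 12.3% for miR-126a-3p, and it was widest for miR-145-5p (19.9%) and narrowest for miR-145-3p (7.75%). That low SD is no sign of a steadier level, since miR-145-3p rests on 50 to 125 raw counts in these libraries. Its biological coefficient of variation without MnCl2 1 was 0.180, above those of miR-143-3p and miR-126a-3p.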

How the data were processed

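Small RNAs of striatum were counted in 9 libraries of 583045 to 2012769 counts. TRIzol extraction, selection of 15 to 45 nucleotides on a gel and QIAseq adapters are described per the labels' protocols. Trimmomatic and the rn6 build are named per the submitters' processing notes. No aligner, strand setting or handling of molecular identifiers is stated there, so each is not given in the sources used here. The authors deposited raw counts per entry, without normalization.

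Members and lists were chosen with earlier results of these data known. All 9 libraries were fitted together in edgeR 4.0.16 under R 4.3.3, with TMM, filterByExpr (which left out 0.0854% of counts) and a robust quasi-likelihood test, two-sided, with Benjamini-Hochberg adjustment over 1113 entries at 0.05. DESeq2 1.42.0 was an alternative. Correlations used log2 CPM (prior count 2) and scipy 1.17.1. The named entries were all members, the 3 miRNAs most alike to each of miR-126a-3p, miR-143-3p and miR-145-5p, and at most 2 entries per list; any others were chosen after their values were seen. Sequences and coordinates are from RefSeq (GRCr8). Scripts were tested on simulated data. The planned sum of miR-126b with miR-126a-3p was replaced, after seeing the data, by one with miR-126a-5p, whose complement it shares.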

Additional observations from a re-analysis of the deposited data

How the results depend on the processing

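Of 417 log2 fold changes of members recomputed under other settings, 42 could not differ, since the stricter filter kept the same 1113 entries and robust weights do not enter the fold change. Of the other 375, 327 kept their direction and 48 changed sign, and 0 of the 417 were called (lowest adjusted p 0.455). With miRNA entries alone, MMT against control gave -0.029 for miR-126a-3p, -0.094 for miR-126a-5p, -0.11 for miR-126b, -0.085 for miR-143-3p and -0.065 for miR-143-5p. MnCl2 against control gave -0.16, -0.13 and -0.14 for the 3 miR-126 entries in the same order, and MMT against MnCl2 0.13, 0.033 and 0.024. The near-zero MMT against MnCl2 value of miR-126a-3p also changed sign with RLE scaling (0.042), no low-count filter (0.060), the 2 compared groups alone (0.058), DESeq2 (0.042) and miR-126b added to miR-126a-5p (0.036). Without the low-count filter edgeR called 1 entry for MnCl2 against control, miR-200a-3p, which is no member and was singled out after its values were seen. The cause of these changes was not tested.

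Leaving out 1 library at a time, log2 fold changes of MMT against control ran from 0.02 to 0.30 for miR-126a-3p, -0.061 to 0.18 for miR-126a-5p, -0.11 to 0.19 for miR-126b, -0.036 to 0.21 for miR-143-3p, -0.019 to 0.15 for miR-143-5p, 0.08 to 0.20 for miR-145-3p and -0.21 to 0.22 for miR-145-5p. Those of MnCl2 against control ran from -0.042 to 0.30 for miR-126a-3p, -0.052 to 0.32 for miR-126a-5p, -0.063 to 0.30 for miR-126b, -0.035 to 0.74 for miR-143-3p, 0.09 to 1.14 for miR-143-5p, 0.07 to 0.91 for miR-145-3p and -0.16 to 0.80 for miR-145-5p. For MMT against MnCl2 the ranges were -0.10 to 0.13, -0.27 to 0.10, -0.27 to 0.072, -0.68 to 0.093, -1.07 to -0.02, -0.78 to 0.076 and -0.84 to 0.10 in the same order.

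No sign was seen that the replicate numbers pair the libraries, as 4 of 9 same-numbered pairs correlated above 0.1 (r from -0.67 to 0.49). With 3 libraries a group, this cannot show that the numbers mark no shared batch or sex. With each of the 9 libraries set against both other groups, the best match had its own number in 5 of 18 cases. With the replicate block 0 entries were called in each comparison, and the 2 values that changed sign were miR-145-5p for MMT against control (0.012) and miR-126a-3p for MMT against MnCl2 (0.0042).

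Correlations depended on scaling. Relative to the total count alone, r was 0.635 for both miR-126a arms, 0.956 for miR-145-5p with miR-143-3p and 0.776 for miR-126a-3p with miR-145-5p, none passing the adjusted threshold, and was -0.22 for miR-143-3p and -0.011 for miR-145-5p with the total. With miRNA entries alone, miR-126a-3p gave 0.496 with miR-143-3p and 0.583 with miR-145-5p, which did not pass, and 0.792 with the total, which did. Leaving out 1 library gave 0.207 to 0.950 for both miR-143 arms, -0.58 to 0.936 for both miR-145 arms, and with the total 0.370 to 0.865 for miR-126a-3p, -0.17 to 0.928 for miR-143-3p and 0.0112 to 0.968 for miR-145-5p. Without MnCl2 1 and relative to the total count, r was -0.078 for both miR-126a arms, -0.080 for both miR-143 arms, -0.77 for both miR-145 arms, 0.375 for miR-145-5p with miR-143-3p, 0.772 for miR-126a-3p with miR-143-3p, 0.434 for miR-126a-3p with miR-145-5p and 0.874 for miR-145-5p with the total. Without MnCl2 1 and with miRNA entries alone, it was -0.15 for both miR-145 arms, and 0.842, 0.851 and 0.887 for miR-126a-3p, miR-143-3p and miR-145-5p with the total. These last 2 settings were chosen after seeing the data.

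With 3 libraries a group, the 95% interval of a fold change allows MMT changes in miR-145-5p from -0.90 to 0.79 on the log2 scale. The minor arms rest on 50 to 230 counts a library. Pooling counts by group moved the arm shares by less than 1 SD between libraries; leaving out 1 of 3 libraries cannot move a mean that far and shows nothing on stability.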
